A study of Homo sapiens with 6 samples.

Results

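The integrated stress response and the unfolded protein response were followed through 40 genes by RNA-seq. The cells were PC9-BrM3, which were derived from the lung adenocarcinoma line PC9 by repeated passage through brain metastases in mice. The 40 genes were chosen by name from general knowledge of both pathways, with earlier results of these data known. Each symbol matched 1 of the 58735 genes in the deposited table. The 40 hold 27 genes of the integrated stress response, which are ATF4 with its partners and target genes. The other 13 are of the endoplasmic reticulum branch, the sensors ATF6 and ERN1 with genes that ATF6 and XBP1 are known to control. In BrM3-shAKR1B10 cells, PSAT1, XBP1 and HERPUD1 each rose about 1.5-fold and CHAC1 rose 2.40-fold over BrM3-shNC cells, although CHAC1 had only 17 to 35 reads in the control libraries and reached the level for testing only through its silenced libraries. Of the genes with smaller differences, 4 of 7 folding proteins of the endoplasmic reticulum, calreticulin (CALR) among them, passed the adjusted p below the control, beside 23.1% of all genes tested. This count was 2 of 7 when the values were rescaled as TPM, by quantiles or by reads on genes, beside 19.4%, 20.9% and 19.0% of all genes.

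In the integrated stress response, kinases that sense amino acid shortage, heme shortage, viral RNA or misfolded protein phosphorylate the translation factor eIF2alpha, which slows protein synthesis but raises translation of the transcription factor ATF4. ATF4 then switches on genes for amino acid uptake and synthesis, and with sustained stress the factor CHOP, encoded by DDIT3. In the unfolded protein response, the sensors ATF6, IRE1 (ERN1) and PERK (EIF2AK3) detect misfolded protein in the endoplasmic reticulum, and ATF6 and XBP1 raise chaperones and the degradation machinery. The main control of ATF4 is translational and that of XBP1 is splicing, and neither is seen in values summed over a gene.

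The study asked what AKR1B10 silence changes in these cells. BrM3-shAKR1B10 cells carried shRNA vector 1 against AKR1B10 (labelled genotype AKR1B10 knockdown) and BrM3-shNC cells a negative control shRNA (labelled genotype WT), both in the LV2 lentiviral vector and both under the labelled treatment "routine culture", in RPMI1640 medium with fetal bovine serum and antibiotics. There were 3 libraries per group, from 1 cell line and 1 shRNA, and the labels do not say whether the libraries came from separate cultures, so the p-values measure only the spread between these libraries. Values are FPKM, fragment counts scaled by gene length and library size, and differences are given on log2(FPKM + 0.1), a scale that understates the change of low genes.

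The libraries held 16964504 to 18709028 reads on genes, and 3 reads on a gene of 1 kilobase were worth 0.163 to 0.177 FPKM. AKR1B10 itself stood at 108.3, 107.2 and 110.2 FPKM in the silenced libraries and at 798.7, 775.0 and 772.0 FPKM in the controls, in the direction of the labels. Of the cell type markers, 5 of 5 epithelial genes were at a mean of at least 1 FPKM, summing to 2708 to 2771 FPKM in the silenced libraries and 2483 to 2783 FPKM in the controls. The defining lung epithelium markers NKX2-1, NAPSA, SFTPB and SFTPC were near 0 in both groups, summing to 0.591 to 0.927 FPKM against 0.465 to 0.666 FPKM, so the labelled lung origin was not visible in them. Of the markers of other cells, 1 of 4 fibroblast genes, 0 of 3 leukocyte genes, 1 of 3 endothelial genes and 1 of 4 brain genes reached 1 FPKM (COL1A1, CDH5 and MBP). Their summed levels were low but did not overlap between groups, with 1.20 to 1.35 FPKM in the silenced libraries against 2.03 to 2.05 FPKM in the controls for fibroblast genes, 2.10 to 2.37 against 1.52 to 1.79 FPKM for endothelial genes and 2.52 to 2.70 against 3.43 to 3.59 FPKM for brain genes. The leukocyte sum was 0.0556 to 0.139 against 0.192 to 0.265 FPKM. COL1A1 was called lower and CDH5 higher, and the part of such genes in the results was not tested.

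The promoters show which genes carry the sequence elements through which these factors are known to act. RefSeq promoters (GRCh38.p14, from 250 bases before to 50 bases after a gene's start) were given for 37 of the 40 genes, and those of PSPH, SHMT2 and ALDH1L2 were not. The 37 genes had 60 promoters, and all 27305 genes had 35116. A gene counted as a holder of an element if any of its promoters matched. All promoters were searched on both strands for the core of the C/EBP-ATF response element (TGATGNAA), to which ATF4 binds with a C/EBP partner. The other elements searched were the endoplasmic reticulum stress response element (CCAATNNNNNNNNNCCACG) and its second form (ATTGGNCCACG), bound by ATF6 with NF-Y, and the core of the unfolded protein response element (TGACGTGG), bound by XBP1 and ATF6. No match of one element overlapped a match of another in these promoters.

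The core TGATGNAA stood in promoters of 10 of the 37 genes, namely ASNS, ATF3, CEBPG, CHAC1, HERPUD1, MTHFD1L, PPP1R15B, SLC1A5, SLC3A2 and SLC7A1, against 4.46% of all 27305 genes with a promoter in the table. In 8 of these the match lay before the RefSeq start, and in SLC3A2 and SLC7A1 just after it. Counted by promoter, the core was in 12 of 60 (20%), against 3.62% of all 35116 promoters. Windows of 30 bases are shown for both holders that were called higher (CHAC1 and HERPUD1), for a holder with a lower level (MTHFD1L) and for ASNS, a classical target, each read 5′ to 3′ on the strand of its gene with the match in capitals.
CHAC1, chr15:40953251-40953280, plus strand: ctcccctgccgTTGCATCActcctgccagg
HERPUD1, chr16:56931955-56931984, plus strand: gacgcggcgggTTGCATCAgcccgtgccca
MTHFD1L, chr6:150866346-150866375, plus strand: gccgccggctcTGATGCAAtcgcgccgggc
ASNS, chr7:97872458-97872487, minus strand: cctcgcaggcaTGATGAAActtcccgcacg
In CHAC1 and HERPUD1 the element reads as the reverse complement. Its first base lies at -209 and -176 from the RefSeq start.

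The endoplasmic reticulum stress response element was present in 5 of the 37 genes, CALR, CANX, CRELD2, PDIA6 and XBP1, against 0.0916% of all genes. Its second form was present in HERPUD1 and SDF2L1, against 0.0696% of all genes. Counted by promoter, the first form was in 7 of 60 (11.7%) against 0.0769%, and the second in 2 of 60 (3.33%) against 0.0541%. The core TGACGTGG was found in 0 of the 37 and in 0.927% of all genes, which says only that these letters are not in these windows. The windows below cover XBP1 and HERPUD1, which were higher after AKR1B10 silence, and CALR, CANX and PDIA6, which were not.
XBP1, chr22:28800598-28800626, minus strand: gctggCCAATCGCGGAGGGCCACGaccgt
HERPUD1, chr16:56932016-56932044, plus strand: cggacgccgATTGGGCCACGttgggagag
CALR, chr19:12938379-12938407, plus strand: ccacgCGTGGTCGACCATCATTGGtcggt
CANX, chr5:179698773-179698801, plus strand: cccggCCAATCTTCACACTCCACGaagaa
PDIA6, chr2:10812848-10812876, minus strand: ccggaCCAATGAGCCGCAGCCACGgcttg
The CALR window holds the element as its reverse complement. A match is a description of the letters and not evidence of binding in these cells.

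In the control cells the 40 genes spanned a wide range of levels. The 3 highest were CALR with 258 ± 6.10 FPKM (SD, n = 3), CANX with 171 ± 5.98 FPKM and PDIA4 with 153 ± 5.30 FPKM, all folding proteins, and ATF4 with 153 ± 1.81 FPKM did not differ from PDIA4 beyond their spread. At the low end, CHAC1, ATF3, VLDLR, ASNS and ALDH1L2 had control means under 1 FPKM. Fewer cells with a transcript and less RNA per cell cannot be told apart in these bulk values.

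**Figure D1:**
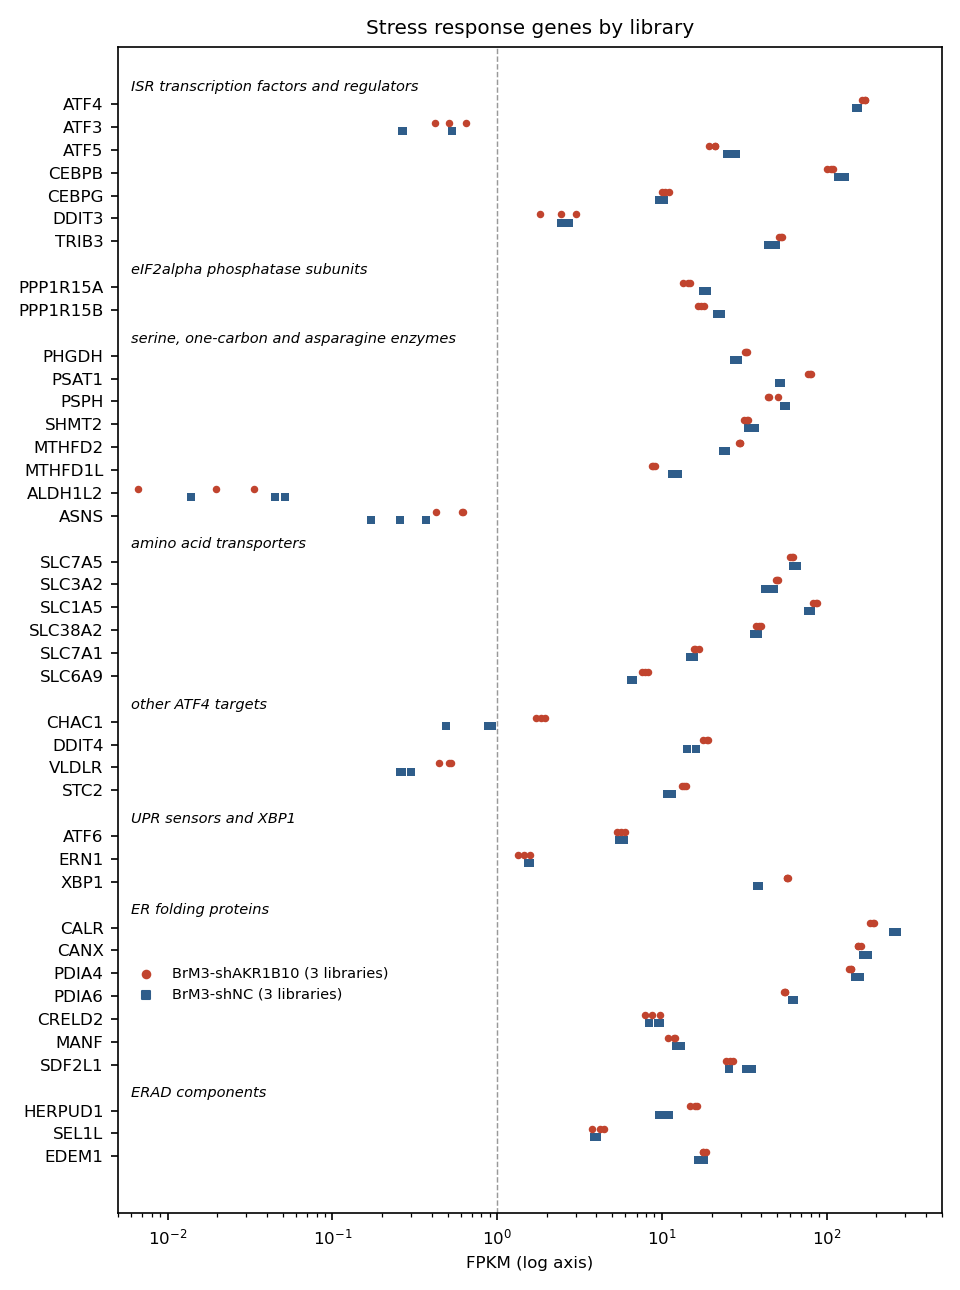
FPKM of the 40 genes in each library on a log axis, with circles for the 3 BrM3-shAKR1B10 libraries, squares for the 3 BrM3-shNC libraries and a dashed line at 1 FPKM. PSAT1, CHAC1, XBP1 and HERPUD1 have all circles to the right of all squares, CALR has all circles to the left, and ATF3, ALDH1L2, ASNS and VLDLR lie left of the line in all 6 libraries.

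Genes with a mean of at least 1 FPKM over the 6 libraries were tested with limma, 13150 in all and 36 of the 40. ATF3, ALDH1L2, ASNS and VLDLR were below this level and were not tested. Calls needed both an adjusted p below 0.05 and a log2 fold change beyond 0.5 in size. By this rule 4 of the 36 genes (11.1%) were called higher in BrM3-shAKR1B10, CHAC1, HERPUD1, PSAT1 and XBP1, beside 5.83% of all genes tested. CHAC1 passed the minimum only through its silenced libraries, and without it 3 of 35 genes (8.57%) were called higher. The shares of all genes given here were not limited in that way, so they are not a like background for counts without CHAC1. With limma 0 of the 36 were called lower, beside 7.45% of all genes, and with voom on the recovered reads also 0. At an unadjusted p under 0.05, 12 genes lay below the control and 13 above it by limma, and 10 below and 16 above by voom. With either tool 0 of those below and 4 of those above were beyond the fold limit. The share of all genes at this unadjusted p was not computed, so these counts have no background.

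With the adjusted p alone and no limit on the fold change, 12 genes (33.3%) were above the control, beside 19.4% of all genes, and 10 (27.8%) were below it, beside 23.1%. Without CHAC1, 11 of 35 (31.4%) were above. The split depended on the scaling, for the 36 genes as for all genes. With values rescaled by reads on genes it was 14 above and 8 below, beside 23.8% and 19.0% of all genes, and with voom 15 above and 9 below, beside 26.9% and 21.1%. As reported, the other 14 did not pass. The 3 values of the silenced group lay wholly above the controls for 13 of the 36 genes (36.1%), beside 25.5% of all genes, and wholly below for 12 (33.3%), beside 29.2%. Without CHAC1, 12 of 35 (34.3%) lay wholly above and 12 wholly below. The median log2 fold change of the 36 genes was 0.01, and that of all genes was -0.01. The log2 fold change was above 0 for 18 genes and below 0 for 18, and the genes are described by role in what follows.

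**Figure D2:**
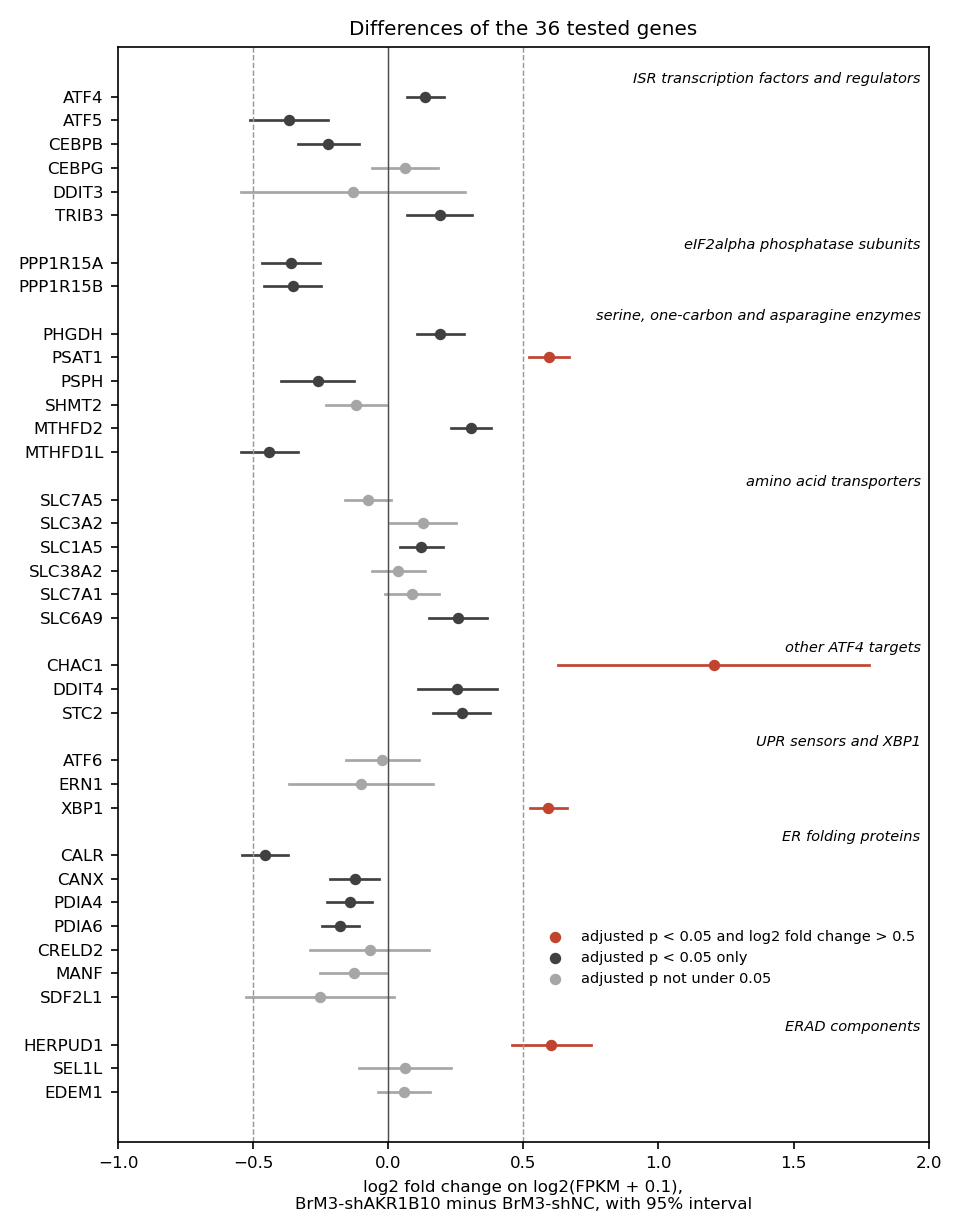
Log2 fold changes (BrM3-shAKR1B10 minus BrM3-shNC, on log2(FPKM + 0.1)) of the 36 tested genes by role, with 95% intervals from limma and dashed lines at the limit of 0.5 in each direction. The 4 called genes lie to the right of the upper line, the 7 folding proteins of the endoplasmic reticulum all lie left of 0, and the interval of DDIT3 reaches from -0.55 to 0.28.

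Both branches held genes above and below the control. Of the 27 genes of the integrated stress response, 23 were tested. PSAT1 and CHAC1 were called higher, 10 passed the adjusted p above the control and 6 below it, and the median log2 fold change was 0.09. Without CHAC1, which reached the minimum only through its silenced libraries, PSAT1 was the 1 call and 9 passed above. All 13 genes of the endoplasmic reticulum branch were tested. XBP1 and HERPUD1 were called higher, no other passed above the control, 4 passed below it, and the median was -0.10. These counts stand beside 5.83% of all genes called higher, 19.4% above and 23.1% below by the adjusted p, and the difference between the branches was not tested.

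ATF4, the central factor of the integrated stress response, changed little. Its level was 164.5, 170.3 and 169.3 FPKM in BrM3-shAKR1B10 and 150.7, 154.2 and 153.3 FPKM in BrM3-shNC. The groups did not overlap, and the log2 fold change was 0.14 (SE 0.0290, adjusted p = 0.0096). The difference passed the adjusted p but was below the fold limit.

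DDIT3, which encodes CHOP and marks sustained stress, showed no difference beyond the spread. Its level was 2.42, 3.01 and 1.81 FPKM in the silenced libraries and 2.67, 2.71 and 2.43 FPKM in the controls. The silenced libraries enclosed the controls on both sides. The log2 fold change was -0.13 with a 95% interval from -0.55 to 0.28 (adjusted p = 0.577), and without silenced replicate 3, the lowest library, it was 0.05. Of the exon bases of DDIT3, 39.6% are shared with other genes, MARS and MBD6 on the opposite strand among them, so its level depends on how such reads were counted.

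TRIB3, a pseudokinase that CHOP and ATF4 induce and that restrains ATF4, was at 52.6, 51.0 and 53.1 FPKM against 43.9, 44.3 and 49.2 FPKM. All silenced libraries were above all controls, with a log2 fold change of 0.19 (SE 0.0503, adjusted p = 0.022). This small difference no longer passed the adjusted p in 5 of 18 alternative analyses, in which the adjusted p reached 0.0717 at most.

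ATF3, a stress-induced factor downstream of ATF4, was scarcely expressed. In BrM3-shAKR1B10 46, 37 and 30 reads were counted on it and in BrM3-shNC 20, 18 and 39 reads, or 0.64, 0.51 and 0.42 FPKM against 0.27, 0.26 and 0.53 FPKM. The groups overlapped through the third control library. With no minimum level, ATF3 had an adjusted p of 0.426 by limma and 0.162 by voom.

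ATF5, a factor translated in the same manner as ATF4, was lower, with 20.9, 19.1 and 21.0 FPKM against 24.7, 26.0 and 28.2 FPKM. The groups did not overlap, and the log2 fold change was -0.37 (SE 0.0606, adjusted p = 0.0035), short of the fold limit. ATF5 shares 23.7% of its exon bases with other genes, IL4I1 and NUP62 on the opposite strand among them. CEBPB, a dimer partner of ATF4, was at 109.1, 100.9 and 105.7 FPKM against 121.3, 117.6 and 129.3 FPKM, with a log2 fold change of -0.22 (adjusted p = 0.010). CEBPG, the other C/EBP partner examined, did not pass, with a log2 fold change of 0.06 (adjusted p = 0.371) and overlapping groups. Thus 2 of the 6 factors tested passed above the control and 2 below it, beside 19.4% and 23.1% of all genes.

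Both subunits that direct protein phosphatase 1 to eIF2alpha passed the adjusted p below the control, beside 23.1% of all genes, and lay wholly below it, beside 29.2%. PPP1R15A, the stress-induced subunit GADD34, was at 14.3, 14.7 and 13.5 FPKM in the silenced libraries and at 18.2, 17.6 and 18.7 FPKM in the controls. PPP1R15B, the constitutive subunit CReP, was at 17.9, 16.6 and 17.3 FPKM against 21.8, 21.5 and 22.9 FPKM. The log2 fold changes were -0.36 for PPP1R15A and -0.35 for PPP1R15B (adjusted p = 0.0011 for each), neither past the fold limit. Both passed the adjusted p in 18 of 18 alternative analyses.

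PSAT1, the aminotransferase of the serine synthesis pathway, rose. It was at 77.1, 80.3 and 78.7 FPKM in BrM3-shAKR1B10 and at 52.4, 51.1 and 52.7 FPKM in BrM3-shNC, from 1890 to 3170 reads per library. The groups were far apart relative to their spread, 1.51-fold, with a log2 fold change of 0.59 (SE 0.0303, adjusted p = 3.0e-05). The gene (ENSG00000135069) spans 78297143 to 78330093 of chromosome 9 in GRCh38 (plus strand), shares no exon bases with another gene, and its 4 pseudogenes had 0 reads.

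Of the other enzymes of serine synthesis, PHGDH went the same way as PSAT1 with a smaller difference and PSPH the other way. PHGDH, which catalyses the first step, was at 32.4 ± 0.599 FPKM against 28.4 ± 0.942 FPKM, with a log2 fold change of 0.19 (adjusted p = 0.0063). PSPH, which catalyses the last step, was at 50.6, 44.5 and 44.0 FPKM against 54.7, 55.6 and 56.2 FPKM. All silenced PSPH values lay below the controls, with a log2 fold change of -0.26 (SE 0.0565, adjusted p = 0.011). The PSAT1 to PSPH ratio of FPKM was 1.70 ± 0.156 in BrM3-shAKR1B10 and 0.938 ± 0.0197 in BrM3-shNC. This ratio and those below were chosen after the values were seen, and each has a two-sided exact permutation p of 0.10, the smallest that 3 against 3 libraries allow.

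Mitochondrial one-carbon metabolism, which splits serine into glycine and a folate-bound carbon unit, also went both ways. MTHFD2 was at 29.6, 29.9 and 29.3 FPKM in the silenced libraries and at 24.4, 23.5 and 23.7 FPKM in the controls, wholly above them, with a log2 fold change of 0.31 (SE 0.0307, adjusted p = 4.5e-04). MTHFD1L, which acts after MTHFD2 and releases formate, was at 8.70, 8.81 and 9.04 FPKM against 12.2, 12.5 and 11.5 FPKM, wholly below, with a log2 fold change of -0.44 (SE 0.0441, adjusted p = 4.5e-04). Neither passed the fold limit, but the MTHFD2 to MTHFD1L ratio was 3.34 ± 0.0864 against 1.99 ± 0.0918. Of the exon bases of MTHFD2, 33.2% are shared with genes on the opposite strand.

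SHMT2, the mitochondrial serine hydroxymethyltransferase, did not pass, with a log2 fold change of -0.12 (adjusted p = 0.079), although its 3 silenced values lay below the controls. Without control replicate 1 the adjusted p was 0.0168. ALDH1L2, which oxidises the formyl folate of mitochondria, had at most 8 reads in any library and no difference could be detected at this depth.

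ASNS, the asparagine synthetase and a standard readout of ATF4, had few reads. It had 49, 34 and 48 reads in BrM3-shAKR1B10 and 21, 28 and 14 reads in BrM3-shNC, or 0.62, 0.42 and 0.61 FPKM against 0.26, 0.37 and 0.17 FPKM. All silenced libraries were above all controls, but the gene was below the minimum and was not tested. With no minimum level the adjusted p was 0.141 by limma and 0.0103 by voom. In GENCODE 29, 1683 of its 1752 coding bases (96.1%) also lie in exons of AC079781.5 (ENSG00000284707), a gene of the same strand that spans 97851688 to 97972985 of chromosome 7. AC079781.5 had 2 to 10 reads per library. The counting tool leaves out reads that overlap more than one gene unless told otherwise, and its setting is not given in the sources used here, so the level of ASNS is uncertain and its part in the low count was not tested.

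The amino acid transporters had log2 fold changes from -0.08 to 0.26. Of the 6 tested, SLC6A9, the glycine transporter, and SLC1A5, which carries glutamine, passed the adjusted p above the control, beside 19.4% of all genes, 0 passed below it, beside 23.1%, and 0 were called. SLC6A9 was at 8.17, 7.54 and 7.86 FPKM against 6.50, 6.50 and 6.67 FPKM, with no overlap and a log2 fold change of 0.26 (adjusted p = 0.0045). SLC1A5 was at 84.8 ± 2.11 FPKM against 78.0 ± 1.83 FPKM, with a log2 fold change of 0.12 (adjusted p = 0.026). It no longer passed in 6 of 18 alternative analyses, and 23.8% of its exon bases are shared with genes on the opposite strand.

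SLC7A5 and SLC3A2 form the leucine transporter as a pair, and neither passed. The log2 fold change was -0.08 for SLC7A5 (adjusted p = 0.128) and 0.13 for SLC3A2 (adjusted p = 0.084), although SLC3A2 passed under 4 of 18 alternative analyses. The ratio of SLC3A2 to SLC7A5 was 0.815 ± 0.0283 against 0.708 ± 0.0274. SLC38A2, which carries small neutral amino acids, and SLC7A1, which carries arginine and lysine, had log2 fold changes of 0.04 (adjusted p = 0.494) and 0.09 (adjusted p = 0.135), with overlapping groups. SLC7A1 passed under 3 of 18 alternatives.

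CHAC1, which degrades the antioxidant glutathione and is among the more selective targets of ATF4 with CHOP, had the highest fold of the 36 genes but few reads. It was at 1.95, 1.72 and 1.84 FPKM in BrM3-shAKR1B10, from 71, 64 and 67 reads. In BrM3-shNC it was at 0.93, 0.49 and 0.88 FPKM, from 35, 17 and 33 reads. The groups did not overlap, and the control libraries were more scattered, through a low value in replicate 2. The level was 2.40-fold higher, with a log2 fold change of 1.20 (SE 0.241, 95% interval 0.63 to 1.78, adjusted p = 0.0077), which stayed between 0.95 and 1.35 with each library left out in turn. With a pseudocount of 1 in place of 0.1 it was 0.69 (adjusted p = 0.0040). The gene (ENSG00000128965) spans 40952962 to 40956519 of chromosome 15 (plus strand) in GENCODE 29. The windows printed above for CHAC1, MTHFD1L, ASNS, CANX and PDIA6 fall inside the GENCODE spans of their genes, since the RefSeq starts used there lie further downstream, and those of XBP1, HERPUD1 and CALR fall outside.

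The 3 genes listed with CHAC1 as other ATF4 targets, DDIT4, STC2 and VLDLR, lay wholly above the control. So did 25.5% of all genes tested, and VLDLR was not tested. Among the 23 tested genes of the integrated stress response, 11 lay wholly above, CHAC1 included, and 7 wholly below. DDIT4, which inhibits mTORC1, was at 18.5 ± 0.706 FPKM against 15.5 ± 1.13 FPKM, with a log2 fold change of 0.26 (adjusted p = 0.016), and 41.2% of its exon bases are shared with an antisense gene listed at 0. STC2, a secreted glycoprotein, was at 14.0, 13.2 and 13.5 FPKM against 11.4, 11.5 and 10.7 FPKM, with a log2 fold change of 0.27 (SE 0.0437, adjusted p = 0.0032). Neither reached the fold limit, and DDIT4 no longer passed the adjusted p in 2 of 18 alternative analyses. VLDLR, a lipoprotein receptor, had 87, 86 and 73 reads against 51, 42 and 44 reads, all silenced above all control libraries, but was below the minimum at 0.493 ± 0.0458 FPKM against 0.274 ± 0.0209 FPKM. With no minimum level, limma gave an adjusted p of 0.120 and voom a log2 fold change of 0.89 with an adjusted p of 0.00202, so its call depends on the tool.

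Of the sensors of the unfolded protein response, ATF6 and ERN1 belong to the 40 genes and overlapped between groups. PERK (EIF2AK3), from a further list, was at 4.11 ± 0.183 FPKM against 3.51 ± 0.119 FPKM, with a log2 fold change of 0.22 (adjusted p = 0.023), short of the fold limit. ATF6 was at 5.61, 5.93 and 5.32 FPKM in BrM3-shAKR1B10 and at 5.48, 5.88 and 5.76 FPKM in BrM3-shNC, with overlapping groups. Its log2 fold change was -0.02 with a 95% interval from -0.16 to 0.11 (adjusted p = 0.779). ERN1, the IRE1 kinase that splices XBP1, was at 1.46, 1.57 and 1.33 FPKM against 1.54, 1.57 and 1.57 FPKM. Its groups overlapped too, with a log2 fold change of -0.10 and a wider interval from -0.37 to 0.16 (adjusted p = 0.499).

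XBP1 rose. It was at 57.1, 58.2 and 57.2 FPKM in BrM3-shAKR1B10 and at 38.1, 38.7 and 37.5 FPKM in BrM3-shNC, with 1981 to 3179 reads per library. The groups were separated by far more than their spread, 1.51-fold, with a log2 fold change of 0.59 (SE 0.0284, adjusted p = 2.7e-05), the smallest adjusted p of the 36 genes. XBP1 (ENSG00000100219) spans 28794555 to 28800597 of chromosome 22 (minus strand), and its pseudogene held at most 0.326% of its reads. The share of spliced XBP1 cannot be read from the table.

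The folding proteins of the endoplasmic reticulum lay on the other side. On the values as deposited all 7 had log2 fold changes below 0, from -0.46 to -0.07. All 7 stayed below 0 under every scaling tried, though the sizes moved. Without silenced replicate 2, 6 of 7 were below 0 and CRELD2 was at 0.0035. Of all 13150 genes tested, 6784 had a log2 fold change below 0. Of the 7 genes 0 were called and 4 passed the adjusted p below the control, beside 23.1% of all genes, with 2 left under TPM, quantile or reads-on-genes scaling, beside 19.4%, 20.9% and 19.0%. CALR, the chaperone calreticulin, was at 189.8, 182.4 and 193.0 FPKM against 253.2, 257.0 and 265.2 FPKM. All silenced values lay well below the controls, the level dropped by 27.1%, and the log2 fold change was -0.46 (SE 0.0351, adjusted p = 1.5e-04), just inside the fold limit. Within each library the XBP1 to CALR ratio was 0.301, 0.319 and 0.296 in BrM3-shAKR1B10 and 0.150, 0.151 and 0.141 in BrM3-shNC.

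PDIA6 and PDIA4, which form disulfide bonds, had log2 fold changes of -0.18 (adjusted p = 0.0033) and -0.14 (adjusted p = 0.017), and CANX, the membrane-bound relative of CALR, of -0.12 (adjusted p = 0.039). The silenced values were wholly below the controls in 5 of the 7 folding proteins, CALR, these 3 and MANF, beside 29.2% of all genes tested. PDIA4 and CANX did not pass the adjusted p under 4 and 11 of the 18 alternatives, so only CALR and PDIA6 passed in all of them. PDIA6 shares 25.2% of its exon bases with a gene on the opposite strand, and no alternative changed how reads were counted. MANF, a secreted factor raised in this response, was at 11.6 ± 0.595 FPKM against 12.7 ± 0.465 FPKM and did not pass (log2 fold change -0.13, adjusted p = 0.086). CRELD2, a secreted target of ATF6, overlapped between groups, with a log2 fold change of -0.07 (adjusted p = 0.583). SDF2L1, a partner of the chaperone HSPA5, did not pass either (log2 fold change -0.25, adjusted p = 0.119). Its first control library, at 25.5 FPKM, lay away from the others at 32.2 and 35.0 FPKM and inside the silenced range, and without that library the log2 fold change was -0.38 (adjusted p = 0.0049).

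**Figure D3:**
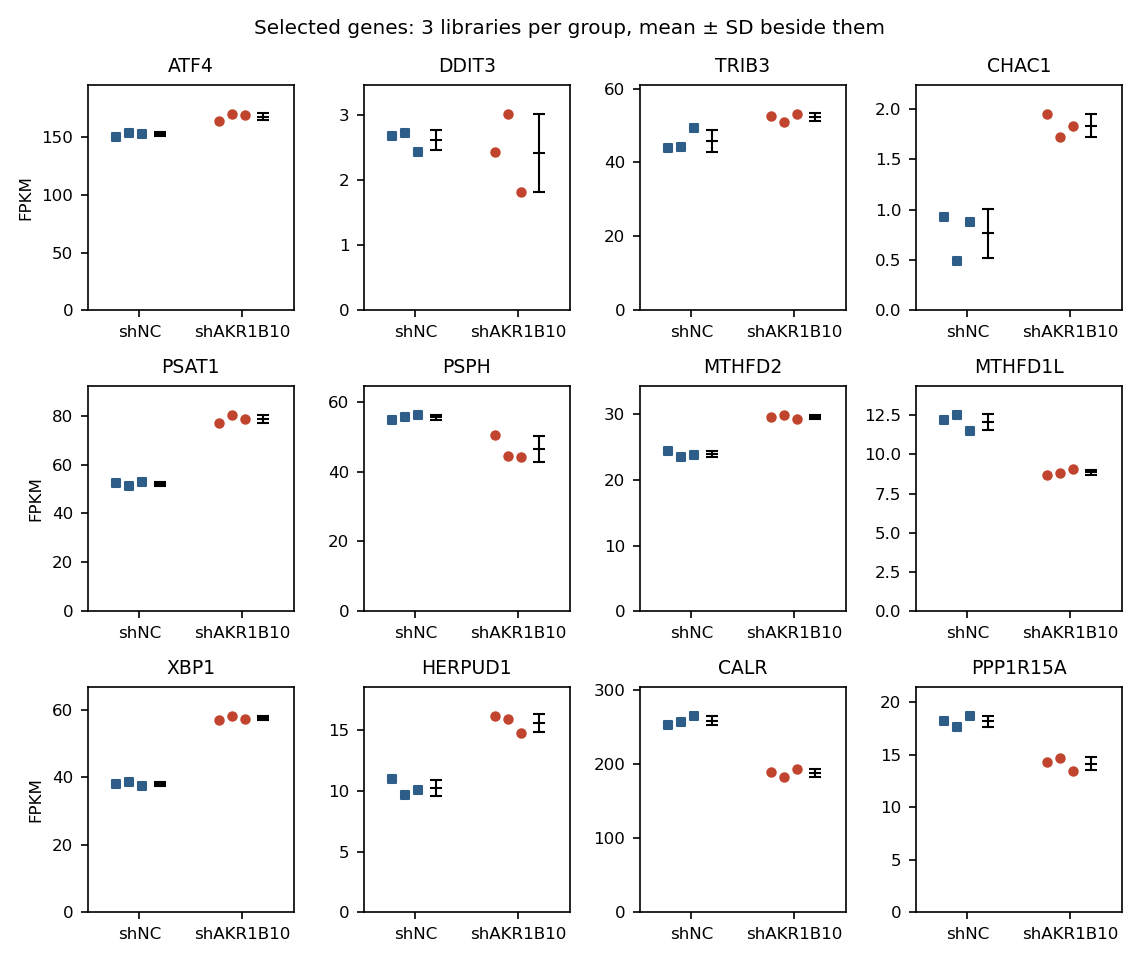
FPKM of 12 genes by library, with squares for BrM3-shNC, circles for BrM3-shAKR1B10 and the mean ± SD (n = 3) beside them, on axes that start at 0. PSAT1, XBP1, HERPUD1 and CHAC1 stand higher in all silenced libraries, PSPH, MTHFD1L, CALR and PPP1R15A lower, and the DDIT3 libraries overlap.

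Of the components that clear misfolded protein from the endoplasmic reticulum, HERPUD1 rose. This membrane protein, which helps assemble the retrotranslocation complex, was at 16.2, 15.9 and 14.8 FPKM in BrM3-shAKR1B10 and at 11.0, 9.65 and 10.1 FPKM in BrM3-shNC. The groups did not overlap, the level was 1.52-fold higher, and the log2 fold change was 0.60 (SE 0.0609, 95% interval 0.46 to 0.75, adjusted p = 4.7e-04). HERPUD1 (ENSG00000051108) spans 56932048 to 56944863 of chromosome 16 (plus strand). SEL1L, the adaptor of the same complex, and EDEM1, which delivers misfolded glycoproteins to it, had overlapping groups and did not pass, with log2 fold changes of 0.06 each (adjusted p = 0.511 and 0.274).

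Genes that share a promoter element did not share a direction. Of the 5 holders of the endoplasmic reticulum stress response element, XBP1 was called higher, CALR, CANX and PDIA6 passed the adjusted p below the control, and CRELD2 did not pass. CANX no longer passed in 11 of 18 alternatives. Of the 10 holders of the core TGATGNAA, CHAC1 and HERPUD1 were called higher, SLC1A5 passed the adjusted p above and MTHFD1L and PPP1R15B below the control. SLC1A5 no longer passed in 6 of 18 alternatives. SLC3A2, SLC7A1 and CEBPG did not pass, and ASNS and ATF3 were not tested. Over all genes, 5.83% were called higher and 19.4% and 23.1% passed the adjusted p above and below.

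At the fold limit, the called genes nearest to it were XBP1, PSAT1 and HERPUD1, with log2 fold changes of 0.59, 0.59 and 0.60. The nearest genes inside the limit were CALR at -0.46, MTHFD1L at -0.44 and ATF5 at -0.37, all below the control. The 4 called genes were called in every alternative that tested them, 18 each for PSAT1, XBP1 and HERPUD1 and 17 for CHAC1, other than the stricter fold limit of 1, which only CHAC1 passed.

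Further genes of the same pathways gave the setting of these members. Their lists were written from general knowledge, with earlier results of these data known. The counts stand beside the 5.83% of all genes called higher and 7.45% called lower, or 19.4% above and 23.1% below by the adjusted p alone. Among 14 genes for the eIF2alpha kinases, eIF2 and its exchange factor eIF2B, 0 were called, 2 passed the adjusted p above and 3 below the control, and the median log2 fold change was -0.10. Of 22 further genes listed as ATF4 targets, 19 were tested, 4 were called higher (TXNIP, GPT2, ADM2 and JDP2) and 1 lower (CBS). By the adjusted p, 8 passed above and 1 below the control, and the median was 0.17. Of these calls, ADM2, at a control mean of 0.946 FPKM, and CBS, at a silenced mean of 0.749 FPKM, reached the minimum level only through the group where they were higher, so their calls give no support to the count. ADM2 was called in 10 of 17 alternatives, CBS in 13 of 16, JDP2 in 15 of 18 and TXNIP and GPT2 in 18 of 18. TXNIP, which restrains glucose uptake, was at 88.8 ± 0.578 FPKM against 46.5 ± 0.563 FPKM, with a log2 fold change of 0.93 (adjusted p = 8.7e-06). CBS, an enzyme of cysteine synthesis, was at 0.749 ± 0.165 FPKM against 1.54 ± 0.389 FPKM, with a log2 fold change of -0.94 (adjusted p = 0.020), and is uncertain because its reads can be split with the near-identical copy CBSL. Among 13 aminoacyl-tRNA synthetase genes that ATF4 is known to raise, VARS, the synthetase for valine, was called lower at 27.4 ± 0.676 FPKM against 38.9 ± 1.56 FPKM (log2 fold change -0.50, adjusted p = 1.8e-04). It stood just at the fold limit, and in 8 of 18 alternatives, TPM, quantile, reads-on-genes scaling and voom among them, it was not called. In this list 0 were called higher, 3 passed the adjusted p above and 2 below, and the median was 0.01.

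In the endoplasmic reticulum lists, 1 of 21 further chaperones and folding enzymes was called, 4 passed the adjusted p above and 3 below the control, and the median log2 fold change was -0.05. The called gene, DNAJB9, a co-chaperone of HSPA5, was at 6.60, 7.91 and 7.29 FPKM against 3.76, 3.31 and 2.88 FPKM. The groups were wide apart, with a log2 fold change of 1.11 (SE 0.110, adjusted p = 4.3e-04). HSPA5 (BiP) and HSP90B1, the main chaperones of this compartment, lay below the control with log2 fold changes of -0.18 (adjusted p = 0.0062) and -0.29 (adjusted p = 0.0011), short of the fold limit, as did DNAJB11 (-0.37). DNAJC3 (0.28), FKBP14 (0.28) and SELENOS (0.30) passed the adjusted p above it. Of 17 tested genes for degradation and export, ERLEC1, a lectin of the degradation pathway, was called higher (0.54, adjusted p = 4.8e-04), 0 were called lower, 5 passed the adjusted p above and 1 below, and the median was 0.13. Of 9 tested further regulators, CREB3L2 and CREB3, membrane-bound transcription factors of the endoplasmic reticulum, were called higher with log2 fold changes of 0.83 (adjusted p = 2.6e-05) and 0.52 (adjusted p = 0.0045), 0 were called lower, 6 passed the adjusted p above and 0 below, and the median was 0.18. CREB3 was called in 14 and ERLEC1 in 17 of 18 alternatives, and CREB3L2 and DNAJB9 in all 18.

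**Figure D4:**
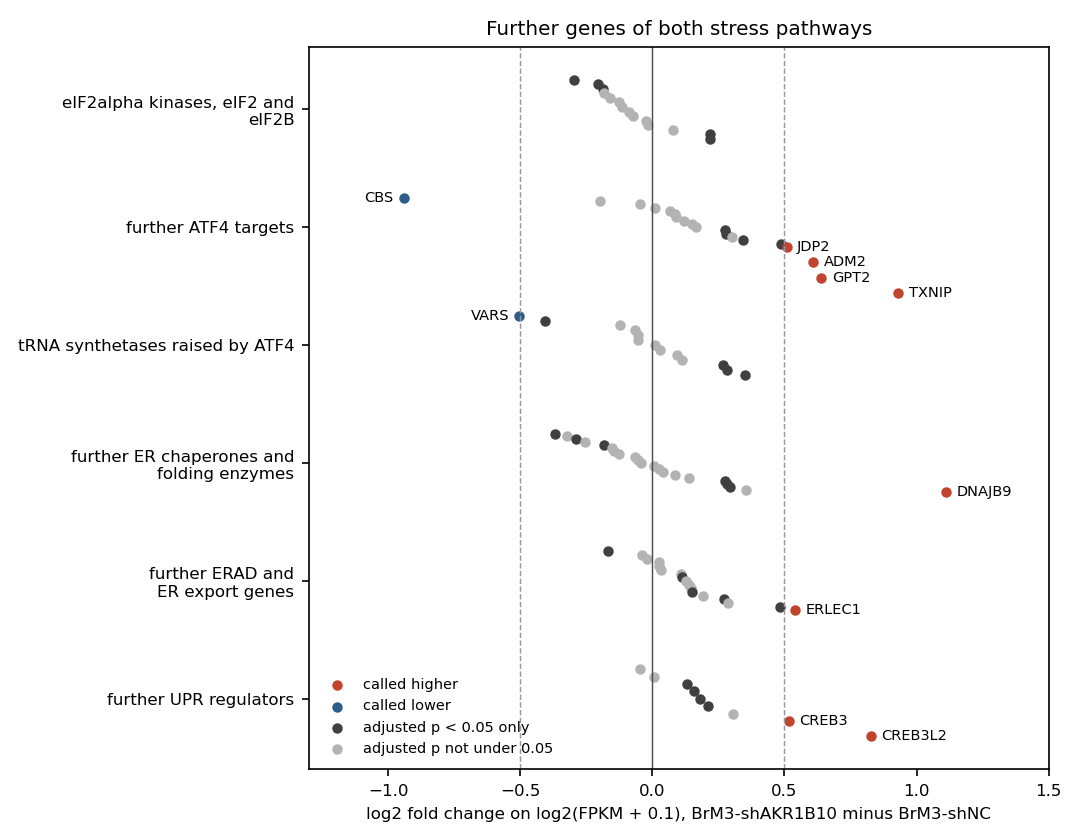
Log2 fold changes (BrM3-shAKR1B10 minus BrM3-shNC, on log2(FPKM + 0.1)) of the tested genes in 6 further pathway lists, 1 point per gene, with called genes named and dashed lines at the fold limit. DNAJB9 at 1.11 and TXNIP at 0.93 lie farthest to the right and CBS at -0.94 farthest to the left, while the genes for eIF2alpha kinases, eIF2 and eIF2B all lie between the lines.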

How the data were processed

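RNA of 3 BrM3-shAKR1B10 and 3 BrM3-shNC libraries was sequenced by the authors, who aligned reads with HISAT2 2.0.5 and counted them per gene with featureCounts 1.5.0-p3 (submitters' processing notes). The deposited values are FPKM as the authors computed them, in 1 table of 58735 genes whose positions and strands all match GENCODE 29 (GRCh38). The strand setting and the handling of reads on overlapping genes are not given in the sources used here. FPKM was multiplied by gene length and divided by the value of a single read in that library, fitted from these products. This gave back the reads of each gene, which were whole (within 0.02 reads) for 100% of values. No per-sample column was left unused (0), and the authors' own comparisons (DESeq2) were not used here.

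The test was limma (version 3.58.1, R 4.3.3) on log2(FPKM + 0.1) for genes whose mean reached 1 FPKM (lmFit, eBayes with trend, two-sided, Benjamini-Hochberg over 13150 genes). Calls required an adjusted p below 0.05 with a log2 fold change above 0.5 in size. Tables, motif searches and figures were made in Python 3.11.15 with numpy 2.4.6, pandas 2.3.3 and matplotlib 3.10.9. The fit was tested on simulated data.

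The members and lists were chosen with earlier results of these data known, so no list was tested as a set. All 40 members are accounted for. Values per library are given for called members and for ATF4, DDIT3, TRIB3, ATF3, XBP1, ATF6, ERN1 and HERPUD1. From each further list the 2 called genes with the largest change are named. Other genes and values, PERK and the further chaperones other than DNAJB9 included, were chosen after they were seen. Libraries of a group differed by more than sampling noise (chi-square per gene from 2.35 to 4.97). Limits of 3 reads cover counting error only.

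The alternatives were pseudocounts of 1 and 0.01, no minimum FPKM, a minimum of 5, TPM, quantile and reads-on-genes scaling, no variance trend, limma's voom on those reads, a replicate block, only protein-coding genes, other call limits and each library left out. Voom without a minimum was added after seeing the data.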

Additional observations from a re-analysis of the deposited data

How the results depend on the processing

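Members called higher numbered 4 and members called lower 0 under all scalings, pseudocounts, the trend-free fit, voom and every left-out library. A minimum of 5 FPKM left 3 higher, since CHAC1 was then not tested. A log2 fold change above 1 left 1 gene higher, and the adjusted p alone gave 12 above and 10 below, or between 9 and 12 above and between 9 and 11 below with 1 library left out. With 1 library left out, 14.6% to 17.5% of all genes were above and 19.3% to 21.2% below. By scaling the members' counts above and below were 12 and 8 with TPM (all genes 22.1% and 19.4%), 13 and 8 with quantiles (21.2% and 20.9%), 14 and 8 with reads on genes (23.8% and 19.0%), 15 and 9 with voom (26.9% and 21.1%) and 16 and 10 with voom and no minimum (11.7% and 8.85%). Voom with no minimum called 6 members higher, adding ASNS (log2 fold change 1.13, adjusted p = 0.0103) and VLDLR (0.89, adjusted p = 0.00202), while limma with no minimum called neither (adjusted p = 0.141 and 0.120). ATF3 (0.65, adjusted p = 0.162) and ALDH1L2 (-0.80, adjusted p = 0.525) did not pass there. Those 4 genes rest on few reads, and the depth limits what can be said of them.

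The members' median log2 fold change, 0.01 as reported, was 0.048 with no minimum, 0.044 with TPM, 0.055 with reads-on-genes scaling, 0.058 with voom and 0.095 with voom and no minimum. It was -0.0021 without silenced replicate 1, the lowest with a library left out, and 0.041 without silenced replicate 3, the highest, while that of all genes was -0.015 and -0.013. The median of all genes was between 0.02 and 0.07 under the other 5 settings, so the direction of genes near 0 depends on the scaling. ATF6 changed sign to 0.014 with TPM, 0.025 with reads-on-genes scaling, 0.028 with voom and 0.027 with voom and no minimum. With 1 library left out, ATF6 ranged from -0.061 to 0.016, CRELD2 from -0.14 to 0.0035 and DDIT3 from -0.298 to 0.052, and none of the 3 passed the adjusted p in any setting. For the changes of sign the cause was not tested.

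The labels number the replicates 1 to 3 in both groups, but deviations of same-numbered libraries did not correlate (-0.016, 0.0039 and 0.0038), so the numbers were not taken as pairs. With the replicate block 4 members were called higher and 0 lower, and the median log2 fold change was 0.01. The adjusted p values with the replicate block were 0.00143 for PSAT1, 0.0145 for CHAC1, 0.00113 for XBP1 and 0.00278 for HERPUD1.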
